A study of Mus musculus with 8 samples.

Results

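The endoplasmic reticulum is where secreted and membrane proteins enter the secretory pathway, fold, form disulphide bonds and, when they fail to fold, are marked for destruction. A set of 44 genes of this compartment was followed by name in mouse leukaemia cells: chaperones, disulphide enzymes, calcium pumps, stress sensors, the translocation channel with its partners, and the degradation machinery. Members were all probes whose symbol in the array's annotation is that of a listed gene, with Ero1l read under its current symbol Ero1a. Of the 44 genes, 43 had at least 1 probe and 1, Dnajb11, had no probe under that symbol in the annotation used here. Their 81 probes stand among 45281 on the array. Of these, 45 probes for 33 genes passed the detection filter (detection p under 0.05 on at least 2 arrays) and were tested, among 13315 tested probes in all.

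When unfolded proteins accumulate, 3 sensors in the reticulum membrane, encoded by Ern1 (IRE1), Eif2ak3 (PERK) and Atf6, start the unfolded protein response. IRE1 splices the message of Xbp1, ATF6 is cut to release a transcription factor, and PERK slows translation while raising ATF4. The transcription factors raise chaperones, disulphide enzymes and degradation genes through short promoter elements. In blood cells the response is best known from plasma cells, which need Xbp1 to secrete antibody.

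Gene expression was read on Illumina bead arrays in MLL-AF9-driven leukaemia stem cells of the C57BL/6 Actin-dsRed background, sorted from the bone marrow of mice with a leukaemia in its quaternary transplant as dsRed+, Hoechst low, c-kit high, CD34+ and FcyRII high. All groups share that oncogene, strain and sort gate. They carried a hairpin against luciferase (Luc control, 3 arrays) or 1 of the hairpins against Itgb3, the integrin beta 3 subunit (Itgb3-17, 3 arrays, and Itgb3-20, 2 arrays), so that the series asks what Itgb3 knockdown changes in these cells. The labels give no animal age, do not say whether arrays came from separate mice, and do not say whether animals were pooled, so p-values measure the spread between these arrays, which may be technical.

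Median signals were 91.2 to 102, and 20.5% to 26.2% of probes rose above background on an array. The only Itgb3 probe was above background on 0 of 8 arrays (detection p from 0.324 to 0.912), so it checks neither the knockdown nor the labels. Of 18 genes that mark this leukaemia, 14 were above background on at least 1 array, and Cebpa, Flt3, Hoxa10 and Ptprc were on none. Summed over its probes, the linear level of that list was 18000 to 20100 in the controls, 22400 to 24400 with Itgb3-17 and 27000 to 28100 with Itgb3-20. Such a sum is carried by the brightest probes, here those of Prtn3, Elane and Ctsg. Of the list's 24 tested probes, 5 were called higher and 2 lower for knockdown against control. Over all tested probes the shares were 8.93% and 7.84%. The 2 falls were those of Hoxa9 (-1.07 and -0.81, limma adjusted p = 0.0033 and 0.0222). The rises included Mpo (1.53 on the probe of lowest p, 3.83e-05). The granulocyte list summed to 2750 to 3110 in the controls, 2750 to 2810 with Itgb3-17 and 4740 to 5110 with Itgb3-20. Of its 12 genes 11 were above background somewhere and Mmp8 was not. S100a8 was its brightest probe. Of 8 tested probes, 2 were called higher with Itgb3-17 (7.22% of all tested probes) and 5 with Itgb3-20 (5.71%). Lower calls were 0 with either. The Itgb3-17 calls were Ltf (1.17, limma adjusted p = 0.00116) and Camp (1.02, 0.00973). Ltf was above background on 0 controls, so it was tested through the knockdown arrays alone. For B cells and plasma cells, whose reticulum is large, 3 of 10 genes were above background on any array; Jchain, Prdm1, Tnfrsf17, Pax5, Ms4a1, Pou2af1 and Derl3, itself a member, were not. That list summed to 318 to 337, 304 to 324 and 300 to 333, and 2 of its 3 tested probes, for Cd79b and Sdc1, were called lower. The Sdc1 probe was above background on 2 controls and 0 knockdown arrays, so it was tested through the controls alone, and another Cd79b probe was at 0.30 (limma adjusted p = 0.338). The part of these lists in the results below was not tested. In bulk samples, fewer cells of a type and less RNA per cell cannot be told apart.

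The promoters of the genes are shown because the response is read through short runs of letters that some of them carry. Of the 44 genes, 36 had a promoter window (250 bases before to 50 after the start) from RefSeq (assembly GRCm38.p6), 37 windows in all. The ER stress response element, ERSE, was searched as CCAAT, any 9 bases and CCACG, and its variant ERSE-II as ATTGG, any 1 base and CCACG, on both strands. They share CCACG, and ATTGG is CCAAT read on the other strand. An ERSE was found in 9 of the 37 windows (24.3%), against 39 of 32851 windows in the table (0.119%). The genes were Calr, Canx, Creld2, Derl3, Dnajc3, Hsp90b1, Hspa5, Pdia6 and Syvn1. An ERSE-II was found in 2 windows (5.41%), those of Dnajb11 and Herpud1, against 12 of all windows (0.0365%). The unfolded protein response element TGACGTGG, which holds CCACG on its other strand, was found in 0 of the 37 and in 0.676% of all windows. A match describes letters in this window and is not a site. Members and motifs were both chosen for the unfolded protein response, so a higher share was built in and is a description. The 5 windows below are those of Herpud1 and Calr, with the element and called changes in opposite directions, of Hsp90b1 and Hspa5, with the element and no called change or no signal, and of Serp1, with neither element and the largest fitted fall among the member probes. They are written 5′ to 3′ on the gene's strand with the fixed letters of ERSE or ERSE-II in capitals.
Herpud1 (chr8:94386179-94386478, plus strand): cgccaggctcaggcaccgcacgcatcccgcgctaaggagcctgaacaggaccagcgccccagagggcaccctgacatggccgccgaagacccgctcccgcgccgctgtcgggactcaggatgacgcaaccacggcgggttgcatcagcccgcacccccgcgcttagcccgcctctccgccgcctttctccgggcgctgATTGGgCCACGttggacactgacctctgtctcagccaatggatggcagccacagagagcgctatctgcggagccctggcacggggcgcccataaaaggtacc
Calr (chr8:84846882-84847181, minus strand): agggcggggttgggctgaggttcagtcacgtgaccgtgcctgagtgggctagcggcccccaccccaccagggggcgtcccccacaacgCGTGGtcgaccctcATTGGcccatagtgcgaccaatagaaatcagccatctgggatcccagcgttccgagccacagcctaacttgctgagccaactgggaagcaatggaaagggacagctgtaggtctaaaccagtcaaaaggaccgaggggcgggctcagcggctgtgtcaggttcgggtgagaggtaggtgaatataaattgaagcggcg
Hsp90b1 (chr10:86705395-86705694, minus strand): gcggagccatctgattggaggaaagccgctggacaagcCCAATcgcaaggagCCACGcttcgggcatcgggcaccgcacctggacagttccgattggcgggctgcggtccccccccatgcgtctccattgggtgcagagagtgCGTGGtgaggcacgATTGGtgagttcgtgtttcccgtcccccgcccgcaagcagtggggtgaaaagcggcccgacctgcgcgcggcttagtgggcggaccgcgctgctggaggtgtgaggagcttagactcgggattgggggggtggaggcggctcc
Hspa5 (chr2:34771840-34772139, plus strand): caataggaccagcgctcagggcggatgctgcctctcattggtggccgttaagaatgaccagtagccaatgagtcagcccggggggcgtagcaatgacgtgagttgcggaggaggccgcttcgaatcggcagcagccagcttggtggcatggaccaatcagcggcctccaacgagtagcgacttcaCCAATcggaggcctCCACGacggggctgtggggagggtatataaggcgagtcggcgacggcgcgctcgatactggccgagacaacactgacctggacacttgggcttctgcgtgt
Serp1 (chr3:58525835-58526134, minus strand): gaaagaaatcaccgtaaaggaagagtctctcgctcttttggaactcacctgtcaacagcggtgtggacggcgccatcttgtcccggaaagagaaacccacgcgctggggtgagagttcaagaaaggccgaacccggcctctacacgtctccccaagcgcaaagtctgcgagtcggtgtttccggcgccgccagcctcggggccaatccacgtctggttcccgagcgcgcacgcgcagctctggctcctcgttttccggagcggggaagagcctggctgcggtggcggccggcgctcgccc
The ERSE-II of Herpud1 begins at -52 from the start and that of Dnajb11 at 7. The ERSE of Calr begins at -162 on the opposite strand. Hsp90b1 has a pair, at -212 and, on the opposite strand, at -107, and that of Hspa5 begins at -65.

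For knockdown against control, the average of the hairpin groups was set against the Luc arrays, in log2 units of normalized signal. Among the 45 tested member probes 14 fell (31.1%) and 3 rose (6.67%). Under median scaling, where 94.4% of all calls were higher, 4 member probes were called lower and 6 higher. A probe was called at a limma adjusted p under 0.05 (Benjamini-Hochberg over all tested probes). Over all 13315 tested probes 7.84% fell and 8.93% rose, 16.8% together, against 37.8% of the member probes. With 1 probe a gene (the probe of highest mean), 12 of 33 genes fell and 1 rose, against 8.25% and 9.46% of 8189 genes. The median log2 change was -0.04 over the member probes and 0.02 over all probes. All 5 knockdown arrays lay below all 3 controls for 15 member probes, against 8.87% of all probes, and above them for 4, against 11.5%. Median scaling, in which arrays are only brought to a common median, moved the median of all tested probes to 0.15 and that of the member probes to 0.10, and 94.4% of all calls were then higher against 53.2%. None of the 17 called member probes changed sign in that setting and 7 kept their call: Atp2a2, Serp1, Calr and Vkorc1 among the falls, Atp2a3 and both Herpud1 probes among the rises. Without Luc control replicate 2, 10 member probes were called. Of the 14 falls, that of Edem1 passed the filter through the controls alone. Among probes above background on at least 1 control and 1 knockdown array, a restriction chosen after seeing the data, 13 of 44 member probes fell (29.5%) and 3 rose (6.82%), against 9.03% and 9.69% of 11158.

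**Figure D1:**
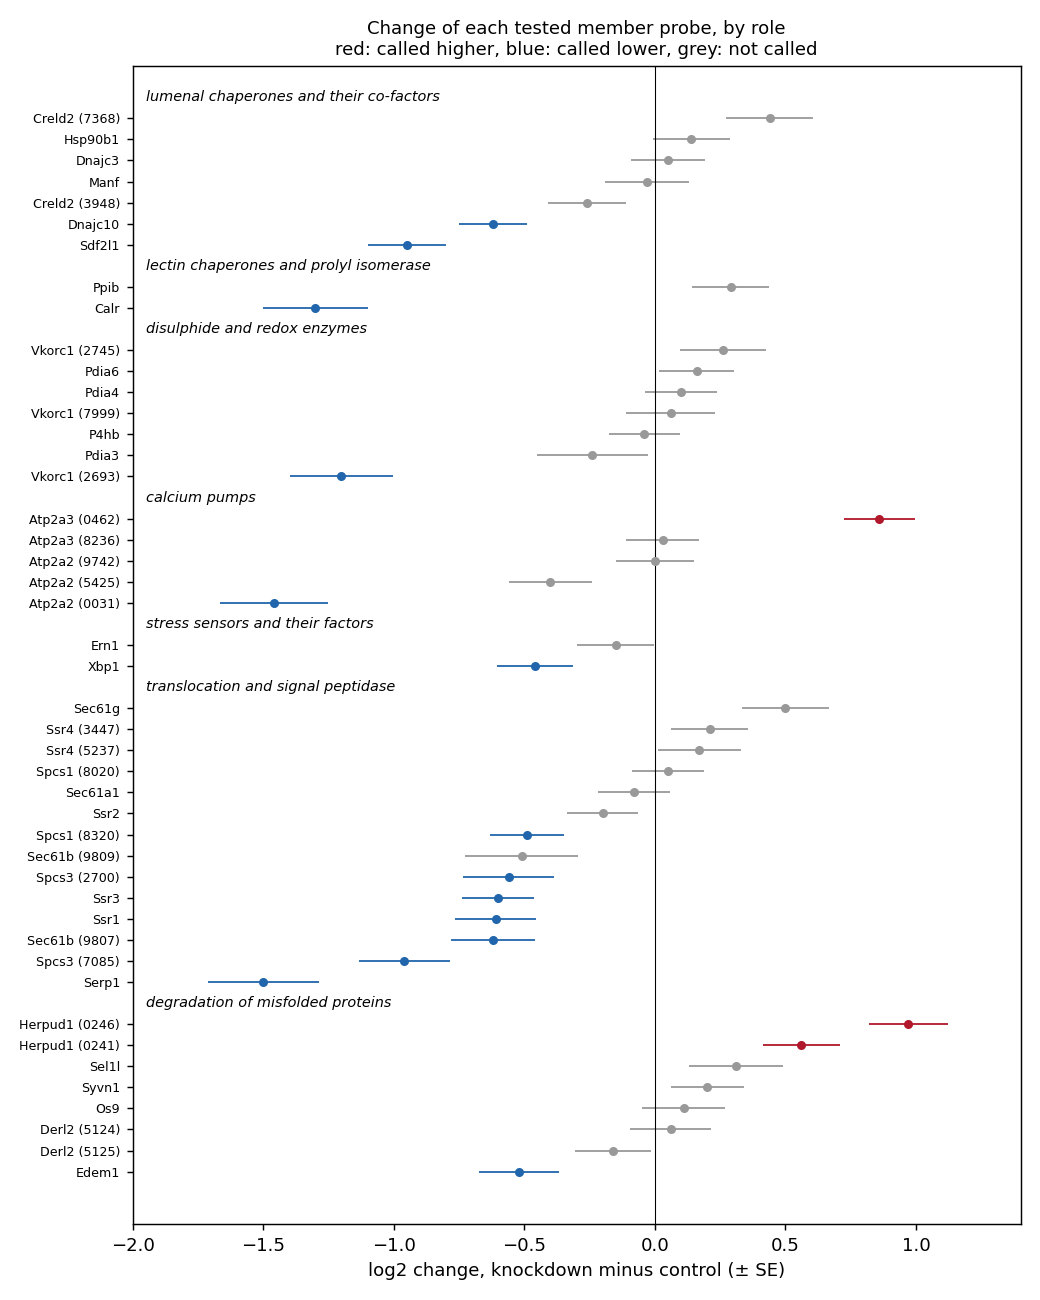
Log2 change between knockdown and control for the 45 tested member probes, grouped by role, with standard errors as bars; 4 digits after a gene give the end of its probe's name where it has several. The 14 called falls (blue) include 7 of 14 probes of the translocation and signal peptidase group and the 3 called rises (red) are in Herpud1 and Atp2a3. Of all tested probes, 7.84% fell and 8.93% rose. Under median scaling 4 falls and these 3 rises were still called, and 3 further probes were called higher.

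The translocation machinery, the role with the most tested probes, held the most falls of any role. Under median scaling Serp1 alone of these falls was called, and Sec61g was called higher. Serp1 (RAMP4), a small protein that sits on the translocation channel, lay at 9.35, 9.05 and 8.80 in the controls, at 7.71, 7.27 and 7.75 with Itgb3-17, and at 7.03 and 8.09 with Itgb3-20. The groups did not overlap, and the lowest and the highest knockdown values were the Itgb3-20 pair. Serp1 fell by 1.50 ± 0.213 (SE; limma adjusted p = 0.000504), 2.82-fold. Of 14 tested probes for 10 genes of this role, 7 fell and 0 rose, against 7.84% and 8.93% of all tested probes. At an unadjusted limma p under 0.05 the counts were 8 and 1, against 1883 and 2089 of 13315. The median of the role was -0.50.

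Spcs3, a subunit of the signal peptidase that clips signal sequences, had both of its tested probes called lower. Probe ILMN_2787085 lay at 7.87, 8.42 and 8.21 in the controls, at 7.31, 7.52 and 7.64 with Itgb3-17 and at 6.61 and 7.23 with Itgb3-20, with no overlap (-0.96 ± 0.174, limma adjusted p = 0.00186). The other Spcs3 probe overlapped between the groups (-0.56, adjusted p = 0.0363) and lost its call without any 1 of Luc control replicates 1 and 2, Itgb3-17 replicates 1, 2 and 3 and Itgb3-20 replicate 4. Spcs1, another subunit, had 1 probe called lower (-0.49, adjusted p = 0.0267) and 1 at 0.05 (adjusted p = 0.867), and that call needed each of Luc control replicates 2 and 3, Itgb3-17 replicates 1 and 2 and Itgb3-20 replicate 4.

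The translocon-associated complex, whose subunits are encoded by the Ssr genes and help some proteins into the channel, was split. Ssr3 lay at 9.89, 10.04 and 9.89 in the controls, at 9.13, 9.24 and 9.30 with Itgb3-17 and at 9.61 and 9.30 with Itgb3-20. All knockdown arrays were below all controls, by 0.60 ± 0.139 (limma log2 change -0.60, adjusted p = 0.00768). Ssr1 lay at 5.50, 5.64 and 5.29, then at 5.07, 4.75 and 4.79, and at 4.67 and 5.07, in the same order. It fell without overlap (-0.61, adjusted p = 0.0129; 0.0664 without Luc control replicate 2), and 1 of its 2 Itgb3-20 arrays was not above background. Ssr2 (-0.20, adjusted p = 0.349) and the Ssr4 probes (0.21 and 0.17, adjusted p = 0.371 and 0.526) did not pass.

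Of the channel itself, Sec61b, the beta subunit, lay at 6.67, 6.63 and 6.44 in the controls, at 5.73, 5.60 and 6.14 with Itgb3-17 and at 5.91 and 6.29 with Itgb3-20. The groups did not overlap and it fell by 0.62 ± 0.160 (limma adjusted p = 0.0143; not called, at 0.0502 to 0.0552, once any of Luc control replicates 1 and 2 and Itgb3-20 replicate 4 was left out). Its other probe was at -0.51 (adjusted p = 0.127). Sec61g, the gamma subunit, lay above the controls on all 5 knockdown arrays at 0.50 ± 0.167 (adjusted p = 0.0528) and did not pass; it was called higher with no background correction, a stricter filter, the authors' processed values, trend and robust moderation, and without Itgb3-17 replicate 3 or Itgb3-20 replicate 5. Under median scaling it was called at 0.77 (0.0222). Sec61a1, the pore, was at -0.08 (0.755). Spcs2 was not above background on any array.

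**Figure D2:**
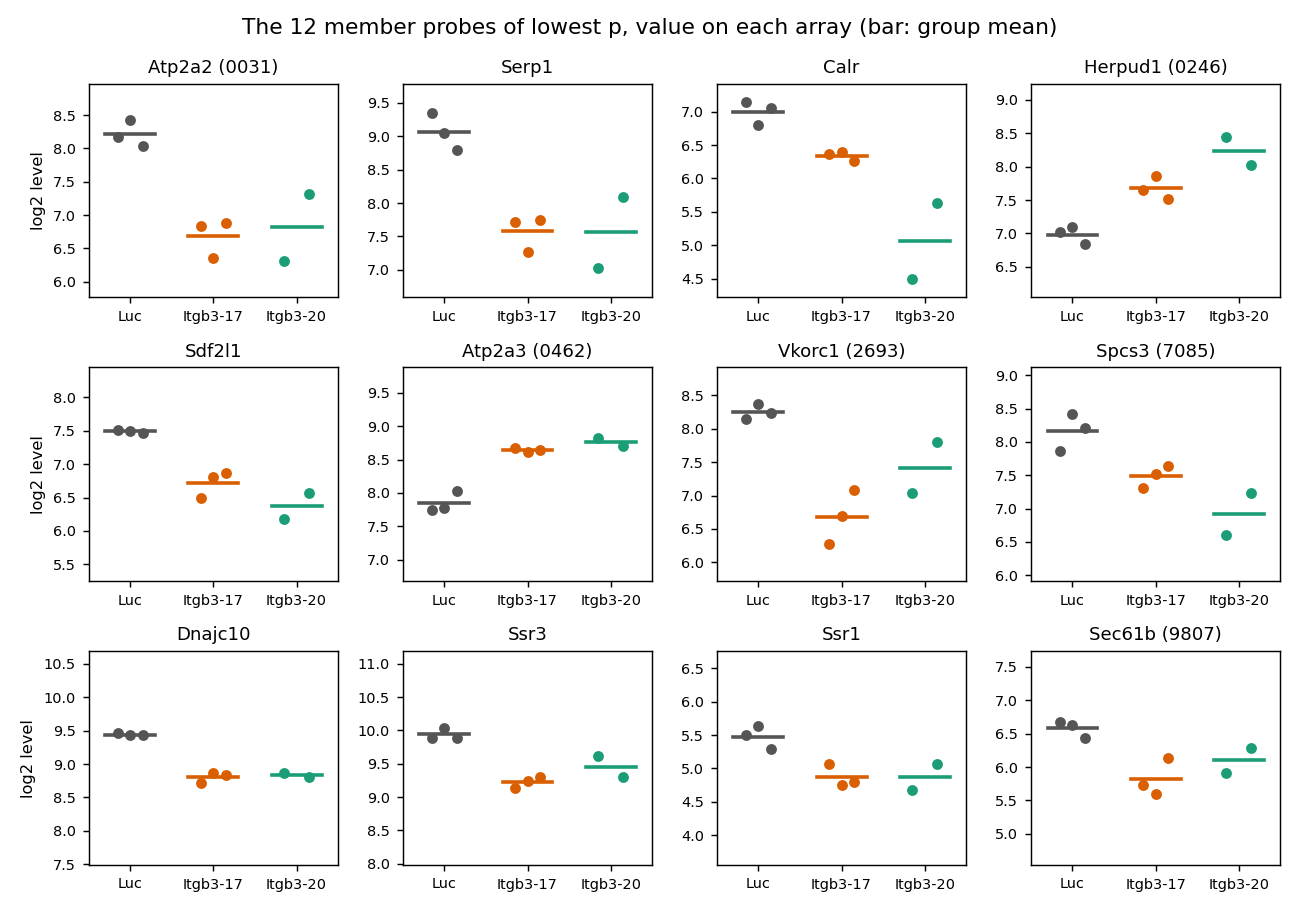
Log2 level on each array for the 12 member probes of lowest p in knockdown against control, with group means as bars; each panel spans the same number of log2 units. In all 12 the 5 knockdown arrays lie on 1 side of the 3 controls, and the Itgb3-20 arrays stand apart from each other for Atp2a2, Serp1 and Calr. The probes were chosen by this comparison, so the separation is a description. Of all tested probes, 8.87% had every knockdown array below the controls and 11.5% above.

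The calcium pumps that fill the reticulum gave calls in opposite directions. Atp2a2 (SERCA2), the widely expressed pump, lay on probe ILMN_2450031 at 8.17, 8.43 and 8.04 in the controls, at 6.84, 6.35 and 6.88 with Itgb3-17 and at 6.31 and 7.32 with Itgb3-20. The groups did not overlap, and the change was -1.46 ± 0.207 (SE; limma adjusted p = 0.000482), 2.76-fold lower. Its other tested probes were at -0.40 (adjusted p = 0.0984), with all knockdown arrays below the controls, and at 0.00 (0.996), the latter above background on 3 of 8 arrays. Those uncalled probes are annotated to a RefSeq transcript and the called probe to a cDNA sequence. Averaged over its probes the gene was at -0.62 (adjusted p = 0.0115).

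Atp2a3 (SERCA3), the pump of blood cells and some epithelia, lay on probe ILMN_2900462 at 7.74, 7.77 and 8.03 in the controls, at 8.68, 8.61 and 8.65 with Itgb3-17 and at 8.82 and 8.70 with Itgb3-20. It rose by 0.86 ± 0.137 (limma adjusted p = 0.00096) with no overlap. Its other probe lay at 10.71, 10.73 and 10.89, then at 10.82, 10.60 and 10.87, and at 10.95 and 10.77, and did not pass (0.03, adjusted p = 0.907). The groups overlapped on that probe. Averaged over the pair the gene was at 0.45 (0.0239).

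Among the chaperones of the lumen, Calr and Sdf2l1 fell most. Calr (calreticulin), a calcium-binding lectin that holds glycoproteins while they fold, lay at 7.14, 6.80 and 7.06 in the controls, at 6.36, 6.39 and 6.26 with Itgb3-17 and at 4.50 and 5.63 with Itgb3-20. The groups did not overlap, the Itgb3-20 arrays lay below all others, and 1 of them was not above background, so the size of the fall there is uncertain. The change was -1.30 ± 0.202 (SE; limma adjusted p = 0.000819). A further Calr probe was above background on 1 array and was not tested, and Canx (calnexin), the membrane-bound partner, was not above background on any.

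Sdf2l1, which keeps the chaperone BiP and its co-chaperones at work, lay at 7.52, 7.50 and 7.47 in the controls, at 6.49, 6.81 and 6.87 with Itgb3-17 and at 6.18 and 6.57 with Itgb3-20. The controls lay close together and above every knockdown array. It fell by 0.95 ± 0.149 (limma log2 change -0.95, adjusted p = 0.000867), a call lost under median scaling (-0.62, 0.0831). Dnajc10 (ERdj5), a reductase that works with BiP in degradation, lay at 9.46, 9.43 and 9.43, then at 8.72, 8.87 and 8.83, and at 8.87 and 8.80. It too fell without overlap (-0.62 ± 0.131, adjusted p = 0.00494), and lost its call under median scaling (-0.34, 0.323).

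Of Hspa5, Hyou1, Dnajb9 and Hsp90b1, Hsp90b1 alone was tested, and it was not called. Hspa5 (BiP), the central chaperone and the usual readout of the response, had 1 probe, above background on 0 of 8 arrays (lowest detection p 0.167), so its level could not be read. Hyou1 was not above background on any array, and Dnajb9 on 1 array by 1 of 2 probes. Hsp90b1 (GRP94), the HSP90 of the lumen, lay at 7.45, 7.58 and 7.78 in the controls, at 7.78, 7.68 and 7.55 with Itgb3-17 and at 8.01 and 7.63 with Itgb3-20. The groups overlapped (0.14, 95% interval -0.17 to 0.46, limma adjusted p = 0.565). Dnajc3 (0.05, adjusted p = 0.863), Manf (-0.03, 0.943, above background on 3 arrays) and the Creld2 probes (0.44 and -0.26, 0.0815 and 0.251) did not pass, nor did Ppib, a prolyl isomerase (0.29, 0.199).

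Of the disulphide enzymes, 1 of 7 tested probes fell and 0 rose, against 7.84% and 8.93% of all tested probes. At an unadjusted limma p under 0.05 the counts were also 1 and 0. The called probe belonged to Vkorc1, the vitamin K epoxide reductase. Probe ILMN_2522693 lay at 8.15, 8.37 and 8.24 in the controls, at 6.27, 6.69 and 7.09 with Itgb3-17 and at 7.04 and 7.80 with Itgb3-20, all below the controls (-1.20 ± 0.197, limma adjusted p = 0.00109). The other Vkorc1 probes were at 0.26 and 0.06 (adjusted p = 0.321 and 0.848), and the mean over its 3 probes did not pass (-0.29, 0.201). The protein disulphide isomerases were at -0.04 for P4hb (95% interval -0.32 to 0.25), -0.24 for Pdia3, 0.10 for Pdia4 and 0.16 for Pdia6, with adjusted p from 0.487 to 0.898. P4hb spanned 11.52 to 11.84 over all 8 arrays. The Ero1a probes, for the oxidase that feeds these enzymes, were not above background on any array.

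The sensors were hardly measurable. Neither Eif2ak3 probe was above background on any array, 1 of the 2 Atf6 probes was on 1 array (detection p 0.0118), and 1 of 3 Ern1 probes was tested. Ern1 lay at 4.74, 4.85 and 4.74 in the controls, at 4.37, 4.57 and 4.44 with Itgb3-17 and at 5.03 and 4.55 with Itgb3-20. It was above background on the 3 controls and on 1 Itgb3-20 array, and did not pass (-0.15, limma adjusted p = 0.542). Xbp1, the transcription factor whose message IRE1 splices, lay at 9.61, 9.79 and 9.94 in the controls, at 9.03, 9.25 and 9.40 with Itgb3-17 and at 9.32 and 9.48 with Itgb3-20. It fell without overlap (-0.46 ± 0.146, adjusted p = 0.0392), but leaving out any of Luc control replicates 2 and 3, Itgb3-17 replicates 1 and 2 and Itgb3-20 replicate 4 ended the call, as did median scaling (-0.16, 0.739). Spliced and unspliced Xbp1 were not told apart here.

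In the degradation branch Herpud1 rose. Herpud1 (HERP), a membrane protein that gathers the ubiquitin ligase complex, rose on both of its probes. Probe ILMN_2790246 lay at 7.02, 7.09 and 6.84 in the controls, at 7.65, 7.86 and 7.52 with Itgb3-17 and at 8.45 and 8.02 with Itgb3-20. Probe ILMN_2790241 lay at 8.31, 8.13 and 8.49, then at 8.88, 8.78 and 8.73, and at 8.76 and 9.13. On both, every knockdown array was above every control. The changes were 0.97 ± 0.151 (SE; limma adjusted p = 0.000822) and 0.56 ± 0.147 (0.0159; 0.0813 without Luc control replicate 2).

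Edem1, a lectin that hands glycoproteins to degradation, was above background on 2 controls and on no knockdown array. It was tested only because of the controls, a choice that favours a fall, so its call is a description. It was at least 1.2-fold lower, setting the dimmer group at no less than the lowest signal above background, a bound that was not tested. The limma adjusted p of the call, 0.0282, is that of the values without this floor. Leaving out any of Luc control replicates 1 and 2, Itgb3-17 replicates 2 and 3 and Itgb3-20 replicate 4 ended the call. Syvn1 (HRD1), the ubiquitin ligase, was at 0.20 (0.368), its partner Sel1l at 0.31 (0.273), Os9 at 0.11 (0.694) and the Derl2 probes at 0.06 and -0.16 (0.841 and 0.509). Derl1 and Derl3 were not above background on any array.

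Altogether 10 genes had probes and no tested one: Hspa5, Hyou1, Dnajb9, Canx, Ero1a, Eif2ak3, Atf6, Spcs2, Derl1 and Derl3. Of 10 genes with several tested probes, giving 14 pairs, the probes of 9 pairs changed in the same direction. Both probes were called in 2 pairs, those of Herpud1 and Spcs3, and in 0 pairs were they called in opposite directions. For Atp2a2, Atp2a3, Vkorc1, Spcs1 and Sec61b, 1 probe was called and no other tested probe of the gene was.

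Each hairpin was then set against the controls, which both comparisons share. With Itgb3-17, 11 member probes fell and 2 rose (28.9% of 45, against 12.9% of all tested probes, of which 5.69% fell and 7.22% rose). Under median scaling 2 were called lower and 7 higher. With Itgb3-20, 7 fell and 3 rose (22.2% against 11.0%, of which 5.27% fell and 5.71% rose), against 1 lower and 1 higher under median scaling. Median scaling turned most calls of all probes higher for knockdown against control, so its counts are not read as a turn of the members. In the main setting the counts were 6 without Itgb3-17 replicate 1 and 7 without its replicate 2 for Itgb3-17. For Itgb3-20 the count was 6 without Itgb3-20 replicate 4. Serp1 was at -1.49 with Itgb3-17 (limma adjusted p = 0.00138) and -1.50 with Itgb3-20 (0.00313), and the difference between the hairpins was -0.01 (95% interval -0.57 to 0.55). Atp2a2 was at -1.52 (0.00117) and -1.40 (0.00385), differing by 0.13 (-0.42 to 0.67). Dnajc10 was at -0.63 and -0.60 (0.00999 and 0.0264; difference 0.03, -0.32 to 0.37) and Atp2a3 at 0.80 and 0.92 (0.0036 and 0.00428; difference 0.12, -0.24 to 0.48). Each interval holds 0 together with differences of either sign up to its ends.

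Calr was the 1 member probe of 45 called between the hairpins (2.22%, against 0.533% of all tested probes, 0.285% lower and 0.248% higher). It was at -0.66 with Itgb3-17 (limma adjusted p = 0.0624) and -1.93 with Itgb3-20 (0.000574), a difference of -1.27 (95% interval -1.80 to -0.74, adjusted p = 0.031). The call ended when Luc control replicate 3 was left out (-1.27, 0.0517), Itgb3-17 replicate 1 (-1.26, 0.133), 2 (-1.24, 0.141) or 3 (-1.31, 0.114), or Itgb3-20 replicate 4 (-0.70, 0.19). It was also lost under median scaling (-1.40, 0.131). Vkorc1 ILMN_2522693 was at -1.57 and -0.83 (difference 0.74, 0.22 to 1.25, adjusted p = 0.2), Spcs3 ILMN_2787085 at -0.67 and -1.24 (-0.57, -1.03 to -0.11, 0.286) and Herpud1 ILMN_2790246 at 0.69 and 1.25 (0.56, 0.16 to 0.95, 0.205). None of the 3 passed between the hairpins, and their intervals do not show that the hairpins act alike. Pdia4 lay at 0.41 and -0.21 and Pdia6 at 0.45 and -0.12 (differences -0.62 and -0.57, adjusted p = 0.113 and 0.18), with neither called against the controls.

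**Figure D3:**
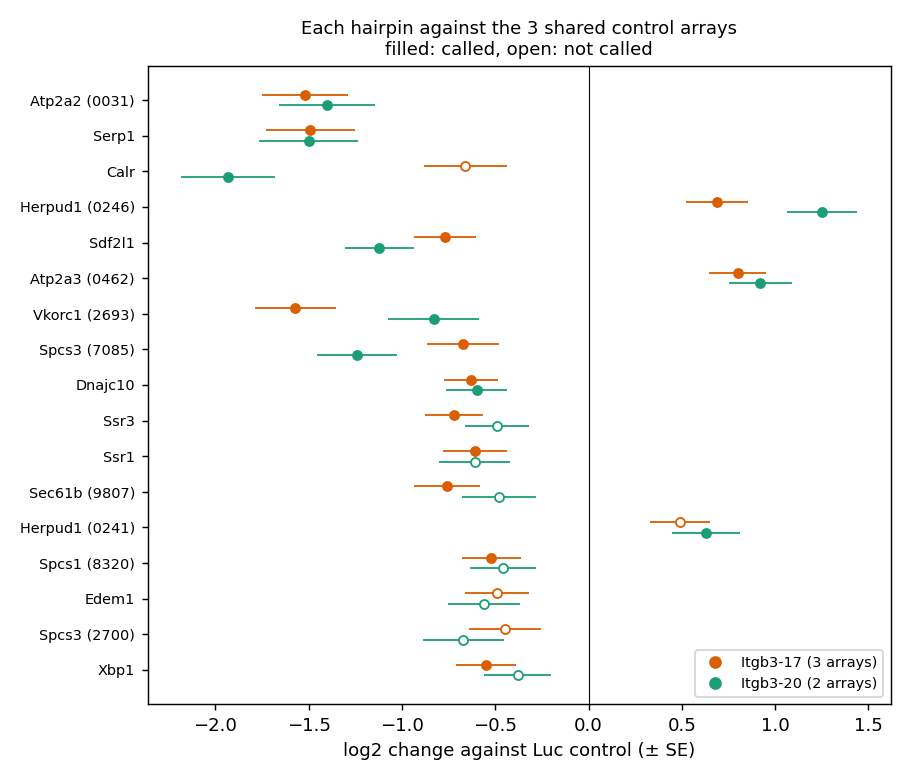
Log2 change of each hairpin against the same 3 control arrays for the 17 member probes called in any comparison with the controls, with standard errors as bars; filled points were called. Serp1, Atp2a2 and Dnajc10 lie at nearly the same change with both hairpins, while Calr lies at -0.66 with Itgb3-17 and -1.93 with Itgb3-20.

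The Itgb3-20 arrays differed from each other on many called probes. Replicate 4 lay below replicate 5 for 12 of the 14 member probes called lower (85.7%, median difference -0.39), for 71.2% of all probes called lower and for 51.9% of all tested probes. Replicate 4 is among the arrays behind these calls, so a low value there helped to choose the probes, and the share is a description. Without replicate 4 the Itgb3-20 calls of Atp2a2, Vkorc1, Dnajc10 and 1 Herpud1 probe were lost, leaving 6 called member probes with 1 array of that hairpin, which is then assumed to vary like the others.

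Calls in both directions were found among genes with a promoter element and among genes without. Of the 11 genes with an ERSE or ERSE-II, 7 were tested on 9 probes: both Herpud1 probes rose, Calr fell, and Creld2, Dnajc3, Hsp90b1, Pdia6 and Syvn1 did not pass. Their median was 0.16. Of the 25 genes with neither element in the window, 21 were tested on 28 probes, of which 10 fell and 1 rose, with a median of -0.10. The falls were those of Dnajc10, Edem1, Sdf2l1, Sec61b, Serp1, Spcs1, Ssr1, Ssr3, Vkorc1 and Xbp1. Over all tested probes 7.84% fell and 8.93% rose. Members with no promoter window, among them Atp2a2 and Spcs3 with their called falls, are in neither set. The sets were formed after the changes were known, and the difference between them was not tested.

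**Figure D4:**
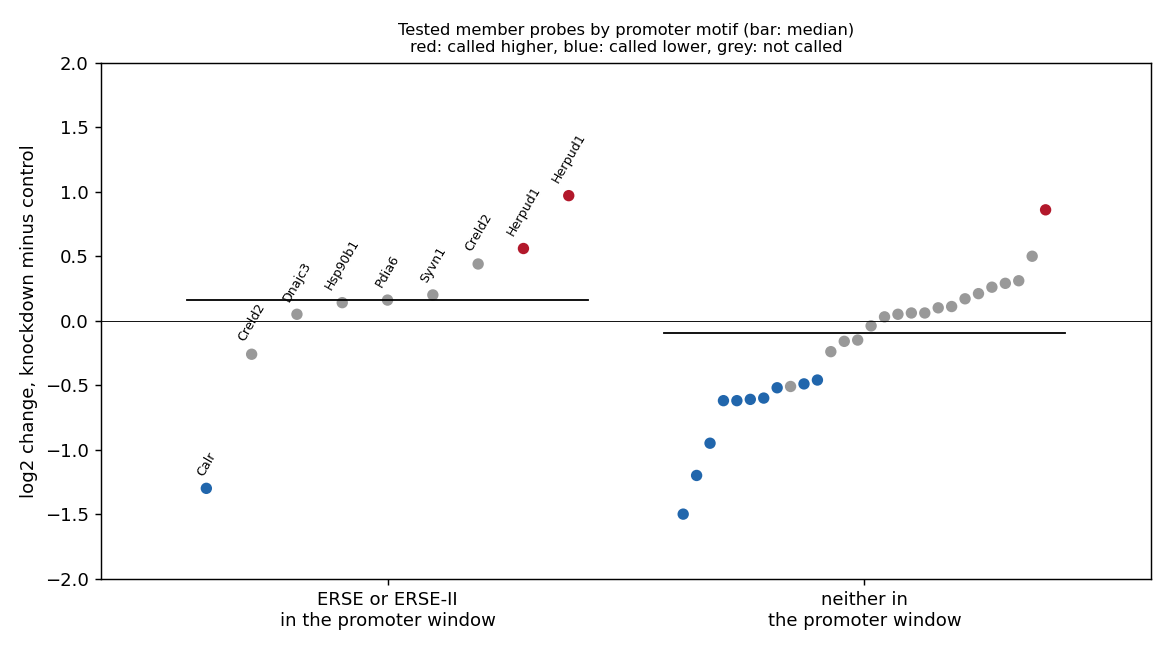
Log2 change between knockdown and control for tested member probes with an ERSE or ERSE-II in the promoter window (9 probes, named) and with neither (28 probes), with medians as bars at 0.16 and -0.10. The 10 called falls on the right come from genes with neither element. Under median scaling only those of Serp1 and Vkorc1 were still called. Of all tested probes, 7.84% fell and 8.93% rose. Members with no promoter window, among them Atp2a2 and Spcs3 with their called falls, are not shown.

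Other genes of the reticulum were read from 6 lists, whose shares stand beside the 8.93% higher and 7.84% lower of all tested probes. For folding and redox enzymes 0 of 23 tested probes rose and 3 fell (13.0%, median 0.05): Txndc11 (-0.67, limma adjusted p = 0.00946), Pdia5 (-0.65, 0.0104) and Txndc5 (-0.45, 0.0319), all of the thioredoxin-like family that includes the disulphide isomerases. None of the 3 calls held under median scaling, and a further Txndc11 probe was at 0.11 (0.706). The called Txndc11 probe was above background on 1 Itgb3-17 array and 0 Itgb3-20 arrays, so the size of its fall is uncertain. For the calcium store 0 of 25 rose and 1 fell (4.0%, median -0.00), Sri (sorcin), a calcium-binding protein (-0.80, 0.0287; its other probes at -0.07 and -0.22, 0.815 and 0.443), and its call ended under median scaling (-0.45, 0.39).

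Of 34 glycosylation probes 7 rose (20.6%) and 2 fell (5.88%), with a median of 0.06. Under median scaling, where most calls of all probes were higher, 8 were called higher and 1 lower. Ostc, a subunit of the oligosaccharyltransferase that docks the enzyme at the channel, fell by 1.18 ± 0.153 (limma adjusted p = 0.000334) from 10.63 in the controls to 9.33 with Itgb3-17 and 9.58 with Itgb3-20. Stt3b, a catalytic subunit, fell on 1 probe (-0.91, 0.00452) and lay at 0.47 on another (0.0518). Under median scaling the first was not called (-0.55, 0.153) and the second was called higher (0.77, 0.0338). Alg5, a glucosyltransferase of the lipid-linked sugar, rose on 1 probe (0.80, 0.00214) and lay at 0.26 and -0.16 on the others (0.246 and 0.602). For targeting and translocation 3 of 32 probes rose (9.38%) and 4 fell (12.5%), near the share of all probes (median 0.08), and none of the 4 falls was called under median scaling. Sec11c, a catalytic subunit of the signal peptidase, was among them (-0.68, 0.00448; -0.41, 0.193 under median scaling).

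In the main setting 2 genes of these lists, Get4 and Aup1, had probes called in opposite directions. Get4, of the tail-anchored protein pathway, had 2 probes called higher (0.63 and 0.43, limma adjusted p = 0.00983 and 0.0414) and 2 lower (-0.57 and -0.60, 0.0194 and 0.0427). Under median scaling its rises were still called and its falls were not (-0.23 and -0.27, 0.622 and 0.65). Aup1, a degradation factor of the membrane, lay on 1 probe at 7.19, 7.08 and 6.88 in the controls, at 5.63, 6.10 and 5.60 with Itgb3-17 and at 4.38 and 5.55 with Itgb3-20. On its other probe the group means were 9.22 for Luc, 10.16 for Itgb3-17 and 9.88 for Itgb3-20. Neither probe overlapped between the groups, and the changes were -1.68 and 0.79 (0.000323 and 0.00127), both called under median scaling too. Of 34 degradation probes 3 rose (8.82%) and 4 fell (11.8%), near the share of all probes (median -0.08). Among the rises was Nploc4, a cofactor of the p97 segregase (0.62, 0.00585).

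Stress transducers and genes of the integrated stress response gave 5 rises (20.0%) and 2 falls (8.0%) among 25 probes (median 0.05). Under median scaling 6 were called higher and 0 lower, a setting in which most calls of all probes were higher. Atf4, the transcription factor below PERK and its sister kinases, rose on probe ILMN_2642681 by 0.94 ± 0.153 (limma adjusted p = 0.00107), from 7.43 in the controls to 8.31 with Itgb3-17 and 8.43 with Itgb3-20, with no overlap. Its other tested probe, also above background on all 8 arrays, lay the other way at -0.64 ± 0.244 and did not pass (0.0864). Rtcb, the ligase that joins the Xbp1 exons after IRE1 cuts them, rose (1.01, 0.00111), as did Ppp1r15a (GADD34), the phosphatase subunit that restores translation (0.71, 0.00534). The Ppp1r15a probe was above background on 1 of the 3 controls, so the size of its rise is uncertain. The called probes of Atf4, Rtcb and Ppp1r15a were also called higher under median scaling (1.24, 1.26 and 0.79). Both falls were of Mbtps1 (-0.57 and -0.63, limma adjusted p = 0.0142 and 0.0477), and neither was called under median scaling. Bbc3, another of the rises, lay at 1.24 with Itgb3-17 (0.00138) and at -0.02 with Itgb3-20 (0.969). Tested probes of Ddit3, Trib3, Asns, Chac1 and Sesn2 were not called in either setting.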

How the data were processed

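Illumina bead arrays of 3 Luc control, 3 Itgb3-17 and 2 Itgb3-20 samples were grouped by their titles. The deposited signals are average bead intensities that were not normalized, per the file headers; the detection p-values were deposited beside them. A table of processed log2 values deposited by the authors, with the same rank order within an array (Spearman 1) and a median of 6.61 in each column, was an alternative only; its centring and any offset are unknown. How detection p-values were computed, the genome build and the scanner software are not given in the sources used here.

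Signals were background-corrected by normexp from the detection p-values with an offset of 16, quantile normalized and log2 transformed (neqc, limma 3.58.1, R 4.3.3). A log2 change of 1 is a doubling of the normalized signal. The filter kept 13315 of 45281 probes, those with 2 or more arrays at a detection p under 0.05. Symbols came from the array's annotation (34885 probes with 1 symbol, 18 with several, 10378 unnamed) and a RefSeq table of GRCm38.p6 (34807 matched, 0 changed). A limma model with the 3 groups (lmFit, eBayes, two-sided) used all 8 arrays, with Benjamini-Hochberg adjustment over all tested probes. It was tested on simulated data. Precision is limited by how few arrays there are; the median standard error was 0.154. No arrays held identical values.

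The members, the lists and the motifs were chosen with earlier results of these data known. Every called member probe is named; the 12 of lowest p, with Hspa5, Hsp90b1, Xbp1, Atf6, Ern1, Eif2ak3 and Atp2a3, are given by array where tested, and other lists by their called probes of lowest p, up to 3. Edem1, below background on one side, is given as a bound. Genes named outside this rule were chosen after their values were seen. The other marker lists summed, as linear levels over their probes in Luc control, Itgb3-17 and Itgb3-20, to 350 to 377, 375 to 389 and 367 to 368 (erythroid), 253 to 262, 249 to 252 and 245 to 257 (megakaryocyte), 1640 to 1940, 1640 to 1780 and 2000 to 2230 (T and NK), 481 to 491, 455 to 481 and 471 to 475 (stromal and endothelial) and 762 to 852, 634 to 731 and 958 to 968 (eosinophil and mast).

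Same-numbered Luc control and Itgb3-17 arrays did not deviate together (correlations 0.028, -0.024 and -0.006), so the number was not treated as a pairing. Alternatives were no background correction, median scaling, no filter, a stricter filter, the processed values, other moderation, array weights, each array left out, a single knockdown group, averaged probes and a replicate block. File headers give no slide.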

Additional observations from a re-analysis of the deposited data

Results flagged for a closer look

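The change of Calr differed between the hairpins by the test of that difference, at -1.27 on the log2 scale (Itgb3-20 minus Itgb3-17, limma adjusted p = 0.031), with -0.66 against the controls for Itgb3-17 and -1.93 for Itgb3-20. The Itgb3-20 arrays lay at 4.50 and 5.63, and the lower of them was not above background. The difference was -0.70 (adjusted p = 0.19) without Itgb3-20 replicate 4 and -1.84 (0.000236) without replicate 5. It was smaller without background correction (-0.49, 0.0315) and in the authors' processed values (-0.58, 0.015).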

How the results depend on the processing

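The main counts of called member probes were 17 for knockdown against control, 13 for Itgb3-17, 10 for Itgb3-20 and 1 between the hairpins. Median scaling gave 10, 9, 2 and 0, and no filter on dim probes gave 13, 8, 6 and 0; a stricter filter gave 0 between the hairpins (limma; the main setting had 3 probes higher and 4 lower at an unadjusted p under 0.05). Leaving out each array gave 10 to 20, 6 to 15, 6 to 13 and 0 to 1. The lowest counts came without Luc control replicate 2 (10), Itgb3-17 replicate 1 (6; 7 without replicate 2) and Itgb3-20 replicate 4 (6). The cause was not tested. The uncalled probe of Atp2a3 turned from 0.03 to -0.01 without Itgb3-20 replicate 4, and lay between -0.01 and 0.09 over the arrays left out. The other alternatives run kept each count within 1.5 times. Called genes were 13 by the brightest probe and 14 by averaged probes, where Vkorc1 lost its call and Atp2a3 and Sec61g gained one. With the number in the titles as a replicate block, the counts were 17 for knockdown against control (random block) and 18 for Itgb3-17 on 6 arrays (fixed block), against 15 on those arrays without it. Without the filter the fewer calls come with more probes tested. Probes below background, Hspa5 and Eif2ak3 among them, could not be read.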
